A study of Mus musculus with 6 samples.

Results

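The 9 genes described here, *Pgm5*, *Vcl*, *Tln1*, *Tln2*, *Flna*, *Flnc*, *Ilk*, *Parva* and *Itgb1bp2*, encode proteins of the costamere and of actin anchoring in muscle. They were taken by gene symbol from the 46078 genes of the count table, and each symbol matched 1 gene. They were chosen by membership of these structures, with *Pgm5* selected on its count-based level, which is among the largest falls from WT to KO, so its values are given as a description with no test. The RNA came from C2C12 cells, an immortalised mouse myoblast line that fuses into myotubes when serum is withdrawn, sampled after 48 h of differentiation. The 3 *Hnrnpa2b1* knockout (KO) libraries and the 3 wild-type (WT) libraries share this treatment and time. Per the study's methods, cells were transfected with a Cas9 and puromycin-resistance plasmid carrying a guide RNA, and 3 independent KO and 3 independent WT clones were isolated after selection. The WT cells had received a scrambled guide. The labels do not tie the libraries to these clones. If they were separate cultures of 1 clone per genotype, p-values do not measure the spread between clones. If they were not separate cultures, p-values measure only technical spread.

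Costameres are protein assemblies under the muscle cell membrane that couple the peripheral sarcomeres to the extracellular matrix. One arm is built on integrins. Talin binds the integrin tail and actin, vinculin binds talin and actin, and the ILK, PINCH and parvin complex forms a separate bridge from integrin to actin. The other arm is the dystrophin glycoprotein complex. Filamins cross-link actin and bind both arms.

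The libraries held 33605258 to 40558740 counts in genes. *Hnrnpa2b1* RNA itself was at 159, 195 and 249 CPM (counts scaled to library size with TMM factors) in KO1, KO2 and KO3 and at 225, 229 and 252 CPM in WT1, WT2 and WT3. KO1 was the lowest, and KO3 lay within the WT range. RNA does not measure the protein, and the study checked its KO clones for the protein by immunofluorescence and Western blot. The log2 fold change, given throughout as KO over WT, was −0.23 (SE 0.18, adjusted p = 0.381, edgeR). *Des* and *Myog*, which mark muscle commitment, were at 1004.6 CPM or more in every library. Of the 6 myoblast markers, *Myod1* (log2 fold change 0.99, adjusted p = 0.0141, edgeR) and *Cdh15* (0.70, 0.0258) rose and *Myf5* (−1.50, 0.0303) fell, and all 3 calls were lost without WT1 (adjusted p = 0.0789, 0.130 and 0.0771) or without WT3 (0.0695, 0.0946 and 0.0781). Without KO3 *Cdh15* (0.0615) and *Myf5* (0.0786) were lost, and without WT2 *Myf5* (0.0826). Of 6 cycling markers 0 were called in edgeR, with 1 at an unadjusted p under 0.05, 1 called by DESeq2 and 4 without KO1, and their median was 0.44. The summed CPM of 8 myotube markers was 16680, 5730 and 5686 in the KO libraries and 13590, 10759 and 14952 in the WT libraries, so KO1 stood apart from KO2 and KO3. Markers of other cell types were low or did not follow 1 direction. The 4 adipocyte markers summed to at most 0.11 CPM in any library, the 3 endothelial markers to at most 0.67 CPM and the 3 immune markers to 1.92 to 3.47 CPM. The 4 osteoblast markers summed to 1.93 to 5.79 CPM in KO and 5.27 to 7.17 CPM in WT. *Dmp1* among them was called lower (log2 fold change −2.11, adjusted p = 0.0137, edgeR, lost without WT1, 0.0615, or WT3, 0.0542), and *Bglap* stood at 5.04 CPM in KO1 and at most 0.44 CPM in the other libraries. The 4 smooth muscle markers summed to 49.7 to 68.6 CPM in KO and 66.5 to 86.4 CPM in WT, with *Lmod1* called lower (−1.27, adjusted p = 0.0208, edgeR, lost without KO2, 0.0538, WT1, 0.0837, or WT3, 0.0760). Over all genes, 3361 of the 14828 tested, or 22.7%, passed an adjusted p of 0.05 in edgeR's quasi-likelihood test, 12.1% higher and 10.6% lower in KO. At an unadjusted p under 0.05 the number was 5781. DESeq2 called 4161 of the 17114 genes to which it gave an adjusted p, and edgeR without KO1 called 30.6% of those tested.

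*Pgm5* encodes aciculin, a member of the phosphoglucomutase family that lacks the enzyme activity and is found at costameres and myotendinous junctions, where it binds dystrophin, utrophin and filamin C. The gene (ENSMUSG00000041731) lies on the minus strand of chromosome 19 from 24683016 to 24861855 (GRCm38), and none of its 3611 exonic bases is shared with another gene. Raw counts were 263, 752 and 435 in KO1, KO2 and KO3 and 9016, 5562 and 9290 in WT1, WT2 and WT3. In CPM this was 7.36, 17.2 and 10.6 against 261, 169.5 and 250.4. Every KO library lay far below every WT library. The means were 11.7 ± 5.02 CPM in KO and 227 ± 50 CPM in WT (SD, n = 3 each), a level 19.3-fold lower in KO. The fitted log2 fold change was −4.27 (SE 0.35), the 84th lowest of the 14828 genes, and it stayed between −4.65 and −4.03 when any 1 library was left out. On TPM, the scale that also accounts for transcript length, *Pgm5* was at 1.51, 3.57 and 2.83 in KO and at 56.9, 38.1 and 50.1 in WT, 18.3-fold lower. *Pgm5* was low in all 3 KO libraries, while the myotube markers had a median log2 difference from their WT means of 0.23 for KO1 but −1.19 and −1.23 for KO2 and KO3. The part of myotube content in the *Pgm5* level was not tested. In bulk RNA, fewer cells of a type and less RNA per cell cannot be told apart.

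The stretch before the *Pgm5* start is shown because this gene had by far the largest difference among the 9. It covers 250 bases on the minus strand, chr19:24861843-24862092 (RefSeq, GRCm38.p6), written 5′ to 3′ and ending at the base before the RefSeq transcript start. Capitals mark 1 match to the E-box CAGCTG, a hexamer bound by myogenic helix-loop-helix factors, and 1 match to the GC box GGGCGG.

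Pgm5 upstream: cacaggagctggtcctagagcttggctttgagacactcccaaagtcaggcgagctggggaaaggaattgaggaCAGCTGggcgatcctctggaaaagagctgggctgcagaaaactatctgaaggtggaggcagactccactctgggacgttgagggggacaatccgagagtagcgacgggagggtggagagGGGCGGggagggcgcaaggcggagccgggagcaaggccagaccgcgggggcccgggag

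Of 32851 mouse promoters of 300 bases each (250 before to 50 after the start, both strands searched), 16.3% hold this E-box and 35.7% hold this GC box. A promoter was found for 6 of the 9 genes. Among these, the E-box was found in *Pgm5* alone and the GC box in 5, all but *Tln1*. A match describes the letters and is not evidence of a bound site.

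The nearest tested gene on either side of *Pgm5* was also far lower in KO. *Tmem252*, which encodes a transmembrane protein, lies 3.36 kb from the 3′ end of *Pgm5* on the opposite strand. Its counts were 25, 29 and 21 in KO and 379, 273 and 467 in WT. This gave 0.70, 0.66 and 0.51 CPM against 11.0, 8.32 and 12.6 CPM, with no overlap. The log2 fold change was −4.08 (SE 0.27, adjusted p = 0.00039, edgeR), and the call held under every alternative tried on counts, with adjusted p of at most 0.00479. The E-box hexamer, held by 16.3% of all promoters, is also found in the promoter of *Tmem252*. This was the only neighbour whose promoter was read, and it was picked with its fall known, so the match is no sign of a shared site. It is shown in capitals with 12 bases on each side (plus strand, chr19:24673767-24673796, GRCm38.p6, from RefSeq).

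Tmem252 window: aatacctgggagCAGCTGaggtcccaccca

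Other genes around *Pgm5* differed in direction. *Pip5k1b*, a phosphatidylinositol phosphate kinase gene 127 kb away, had 2, 3 and 1 counts in KO and 79, 13 and 202 in WT (adjusted p = 0.00996, edgeR). The WT counts spread widely, and the KO counts are too few for a fold. *Dock8*, a guanine nucleotide exchange factor gene 138 kb away on the other side, was higher in KO. It was at 4.0, 1.51 and 2.86 CPM in KO and 0.43, 0.24 and 0.62 CPM in WT (log2 fold change 2.67, SE 0.50, adjusted p = 0.0103, edgeR), and the call was lost without WT1 (adjusted p = 0.0566). *Gm10053* (log2 fold change −0.41, adjusted p = 0.338, edgeR), *Cbwd1* (−0.26, 0.290) and *Fam122a* (0.48, 0.188) did not pass, although the KO libraries of *Cbwd1* (38.8, 36.6 and 26.1 CPM) all lay below its WT libraries (43.4, 39.04 and 39.1 CPM). Within 5 Mb of *Pgm5*, 48 genes were tested, with a median log2 fold change of −0.29 and 33.3% above 0. Around the other 8 genes the corresponding medians ran from −0.08 to 0.23.

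**Figure D1:**
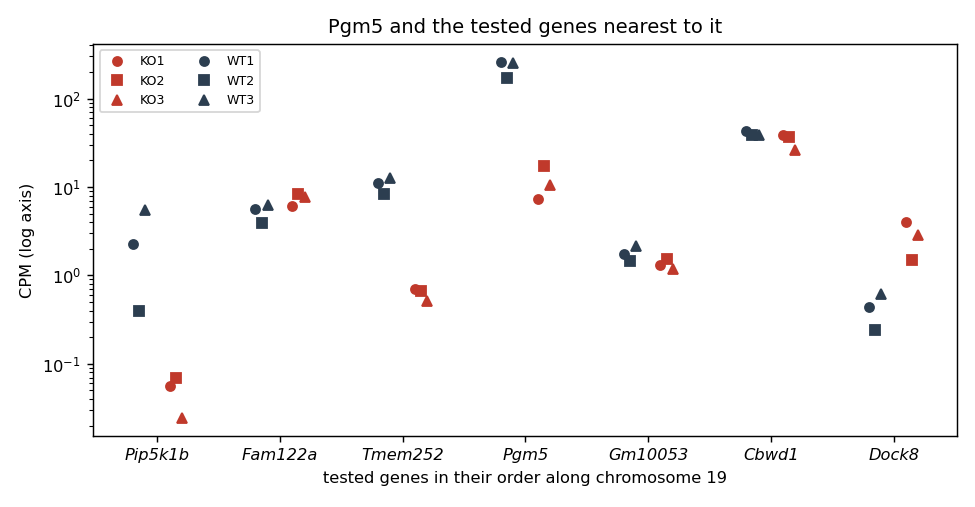
CPM (log axis) of Pgm5 and the 3 nearest tested genes on each side, in their order along chromosome 19, with 1 point per library, red for KO and dark for WT. Pgm5, Tmem252, Pip5k1b and, by a small margin, Cbwd1 have every KO point below every WT point, and Dock8 has every KO point above.

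The rest of the phosphoglucomutase family has enzyme members, which interconvert glucose phosphates or related sugar phosphates. Of 4 tested, 2 fell and none rose, too few to set against the 10.6% of all genes that fell. *Pgm2* (ENSMUSG00000025791, named *Pgm1* in RefSeq), the main muscle enzyme, was at 92.8, 84.0 and 66.0 CPM in KO and 202, 102 and 185 CPM in WT. WT2 lay nearer to the KO libraries than to the other WT libraries. KO over WT, the log2 fold change was −1.01 (SE 0.26, adjusted p = 0.0303, edgeR), and leaving out KO2 (0.0625), KO3 (0.0924), WT1 (0.119) or WT3 (0.0965) ended the call. *Pgm3*, an enzyme of amino sugar synthesis, had a log2 fold change of −0.82 (SE 0.17, adjusted p = 0.0145, edgeR), lost without WT1 (0.0671). The file's *Pgm1* (ENSMUSG00000029171; −0.11, adjusted p = 0.581, edgeR) and *Pgm2l1* (0.33, 0.410) did not pass.

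None of the other 8 genes passed the test. All 8 were tested by edgeR, and 0 had an adjusted p under 0.05, where 22.7% of all genes did. At an unadjusted p under 0.05 the number was 2, *Flna* and *Parva*, beside 5781 of all 14828 genes. DESeq2 called 1, *Flna*, beside 4161 of the 17114 genes to which it gave an adjusted p. On TPM with limma, 0 of the 8 passed (20.5% of all genes did), with 1, *Flna*, at an unadjusted p under 0.05. For that level on TPM no share over all genes is given to set beside it. Their median log2 fold change was 0.20 on counts, beside 0.03 over all genes. KO and WT libraries did not overlap in CPM for 2 of the 8, beside 44.3% of all genes. These were *Parva*, with KO above WT (as for 22.7% of all genes), and *Tln1*, with KO below WT (21.6%). In TPM all 8 overlapped.

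**Figure D2:**
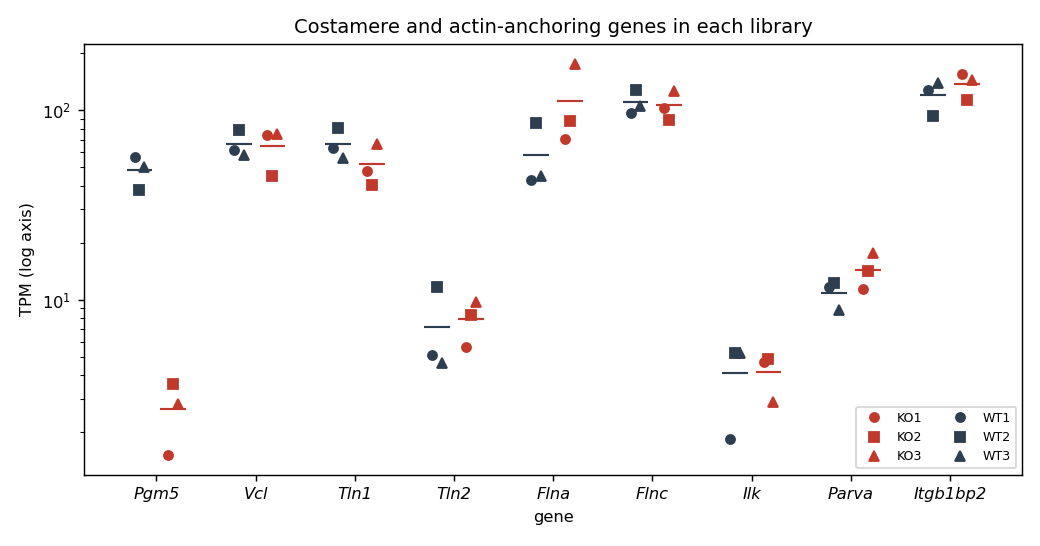
TPM (log axis) of the 9 genes in each library, with red for KO, dark for WT and a bar at each group's mean (3 libraries each). Pgm5 falls from a mean of 48.4 in WT to 2.64 in KO, while the points of the other 8 genes overlap between the groups.

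**Figure D3:**
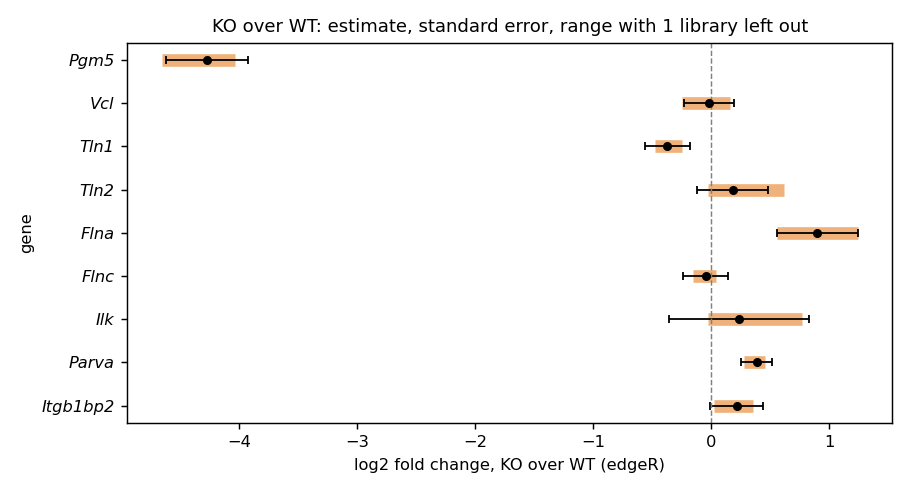
Log2 fold change of KO over WT from edgeR (black points) with its standard error (black bars) and the range of estimates when 1 library is left out (orange). Pgm5 lies near −4.3, and the ranges of Vcl, Tln2, Flnc and Ilk cross 0.

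The talins link the integrin tail to actin. *Tln1*, the broadly expressed talin (ENSMUSG00000028465, chromosome 4, 43531519 to 43562691, minus strand, GRCm38), was at 644, 511 and 704 CPM in KO and 752, 934 and 721 CPM in WT. The highest KO library, KO3, was just below the lowest WT library, WT3. In TPM the groups overlapped, with 48.1, 40.6 and 66.7 in KO and 63.7, 80.4 and 55.9 in WT. On counts the log2 fold change was −0.37 (SE 0.19, adjusted p = 0.189, edgeR). *Tln2*, the talin enriched in striated muscle costameres (ENSMUSG00000052698, chromosome 9, 67217087 to 67559703, minus strand), was at 111, 149 and 154 CPM in KO and 89.9, 186 and 88.6 CPM in WT. WT2 was the highest of the 6 libraries, while WT1 and WT3 were the lowest. The log2 fold change was 0.18 (SE 0.30, adjusted p = 0.687, edgeR), and it moved to 0.62 without WT2 (adjusted p = 0.0710) and to −0.004 or −0.03 without WT1 or WT3.

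*Vcl* encodes vinculin, the actin-binding partner of talin (ENSMUSG00000021823, chromosome 14, 20929433 to 21033673, plus strand, GRCm38). It was at 414, 240 and 314 CPM in KO and 310, 365 and 305 CPM in WT. The highest and the lowest library were both KO, and the WT libraries lay between them. KO over WT, the log2 fold change was −0.02 (SE 0.21, adjusted p = 0.955, edgeR). Of the 8191 exonic bases of *Vcl*, 25.5% overlap *Ap3m1* on the opposite strand, and whether counting used strand is not stated. The *Vcl* promoter is the 1 of the 6 that holds a CArG box, the site of serum response factor, found in 1.63% of all promoters. It is printed because *Vcl* is a known target of that factor, with the box in capitals (plus strand, chr14:20929161-20929190, GRCm38.p6, from RefSeq).

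Vcl window: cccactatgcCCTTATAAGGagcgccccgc

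Of 16 tested genes of a list of serum response factor targets of the cytoskeleton, 0 passed in edgeR, beside 22.7% of all genes. At an unadjusted p under 0.05 there were 3, beside 5781 of all 14828 genes. DESeq2 called 2, beside 4161 of the 17114 genes to which it gave an adjusted p. Without KO1, 6 of the 16 were called (30.6% of all genes), and without KO3, 1 (13.9% of all genes). The list's median log2 fold change was −0.02. *Srf* itself had a log2 fold change of 0.16 (adjusted p = 0.386, edgeR), and *Actb*, cytoplasmic actin, had 0.76 (0.0685). No promoter of the 6 held a MEF2 site, which 3.19% of all promoters hold.

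Filamins cross-link actin filaments. *Flna* encodes the broadly expressed filamin (ENSMUSG00000031328, chromosome X, 74223461 to 74249820, minus strand, GRCm38). It was at 939, 1104 and 1856 CPM in KO and 514, 998 and 581 CPM in WT. KO3 stood highest, WT1 and WT3 lowest, and WT2 overlapped KO1. The means were 1300 ± 489 CPM in KO and 698 ± 262 CPM in WT (SD, n = 3 each). The log2 fold change was 0.90 (SE 0.34) and missed the threshold (adjusted p = 0.0937, edgeR). *Flna* passed in DESeq2 (adjusted p = 0.0274), with no filter on low counts (0.00332) and without KO1 (0.0377, log2 fold change 1.08). Its estimate ran from 0.55 without KO3 to 1.24 without WT2 (adjusted p = 0.254 and 0.0553).

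*Flnc* encodes the muscle filamin of Z-discs and costameres (ENSMUSG00000068699, chromosome 6, 29433256 to 29461849, plus strand, GRCm38). It was at 1490, 1219 and 1468 CPM in KO and 1245, 1600 and 1470 CPM in WT, with interleaved libraries. KO over WT, the log2 fold change was −0.05 (SE 0.19, adjusted p = 0.874, edgeR). Per library, *Flnc* TPM was 1.46, 1.01 and 0.72 times *Flna* TPM in KO and 2.25, 1.49 and 2.34 times in WT, lower in every KO library, with KO1 close to WT2. This ratio was not tested.

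*Ilk* encodes integrin-linked kinase, the pseudokinase at the centre of the ILK, PINCH and parvin complex (ENSMUSG00000030890, chromosome 7, 105736592 to 105742925, plus strand, GRCm38). Its counts were 18, 7 and 21 in KO and 7, 8 and 20 in WT, so the CPM rest on very few reads. The log2 fold change was 0.23 with a large error (SE 0.60, adjusted p = 0.795, edgeR), and no difference was detectable from so few counts. Its TPM were 4.69, 4.85 and 2.88 in KO and 1.84, 5.27 and 5.21 in WT. *Parvb* had similar TPM in the WT libraries (5.51, 4.35 and 3.98) from 1029, 760 and 889 counts, so the 2 deposited measures place *Ilk* very differently. Of the 2744 exonic bases of *Ilk*, 89.7% overlap *Taf10* or *Rrp8*, both on the opposite strand. The part of this overlap in the low counts was not tested.

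*Parva* encodes alpha-parvin, which joins ILK to actin (ENSMUSG00000030770, chromosome 7, 112427505 to 112591692, plus strand, GRCm38). It was at 82.0, 92.2 and 97.3 CPM in KO and 69.8, 76.7 and 61.3 CPM in WT. Every KO library lay above every WT library. In TPM the groups overlapped, with 11.4, 14.2 and 17.6 in KO and 11.6, 12.3 and 8.79 in WT. On counts the log2 fold change was 0.39 (SE 0.13) and missed the threshold (adjusted p = 0.0718, edgeR). It passed without KO1 (0.0439) and with scaling by library totals alone (0.0468). *Parvb*, beta-parvin, fell, at 16.8, 9.18 and 8.15 CPM in KO and 29.8, 23.2 and 24.0 CPM in WT (log2 fold change −1.17, SE 0.28, adjusted p = 0.0241, edgeR). Leaving out KO2 (0.0591), KO3 (0.0643), WT1 (0.0993) or WT3 (0.0647) ended that call.

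The shares of genes within their families were compared next. *Parva* made up 78.4, 90.1 and 91.4% of summed parvin TPM in KO and 67.4, 72.8 and 68.3% in WT, with no overlap. The difference was 17.2 percentage points (exact two-sided permutation p = 0.1, the smallest that 3 against 3 allows, adjusted p = 0.2 over 4 shares). Not all of these 4 shares are reported here. Among the PINCH adaptors, *Lims2* rose from 0.23, 0.49 and 0.49 CPM in WT to 2.85, 3.0 and 2.20 CPM in KO (log2 fold change 2.73, SE 0.38, adjusted p = 0.00427, edgeR). *Lims1*, the abundant PINCH, did not pass (−0.17, SE 0.16, adjusted p = 0.487, edgeR). Its share of summed PINCH TPM was 96.4, 97.1 and 97.8% in KO and 99.8, 99.4 and 99.6% in WT, again without overlap (exact permutation p = 0.1, adjusted p = 0.2). The difference of −2.46 percentage points became −0.92 when shares were taken from CPM. The share of *Tln2* among the talins was 10.4, 17.1 and 12.7% in KO and 7.40, 12.7 and 7.67% in WT, which overlapped (exact permutation p = 0.3, adjusted p = 0.3).

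**Figure D4:**
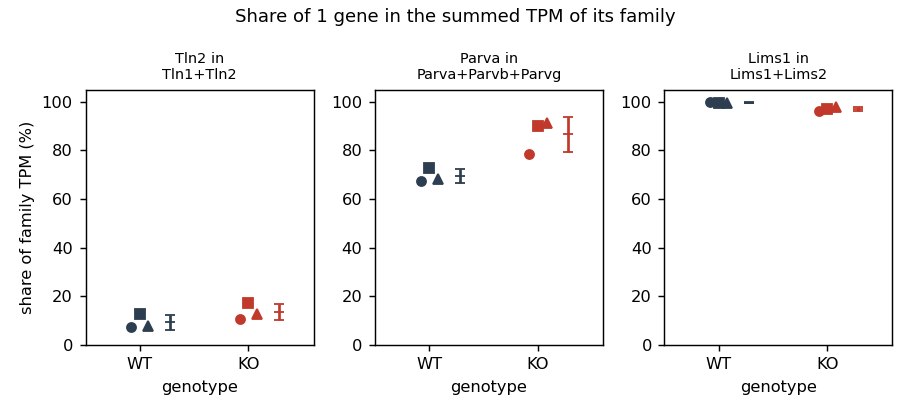
Share (%) of 1 gene in the summed TPM of its family, by genotype, with 1 point per library and the mean ± SD (n = 3) beside them. The Parva share lies between 78.4 and 91.4% in KO, above 67.4 to 72.8% in WT, the Lims1 share lies lower in KO without overlap, and the Tln2 shares overlap.

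*Itgb1bp2* encodes melusin, a striated-muscle chaperone protein that binds the tail of beta1 integrin (ENSMUSG00000031312, chromosome X, 101449088 to 101453541, plus strand, GRCm38). It was at 338, 236 and 256 CPM in KO and 248, 175 and 292 CPM in WT. KO1 was highest and WT2 lowest, and the rest interleaved. KO over WT, the log2 fold change was 0.22 (SE 0.22, adjusted p = 0.511, edgeR). Leaving out 1 library moved it from 0.025 (without WT2) to 0.36 (without WT3). Of 6 tested melusin partners and chaperones, *Hsp90aa1*, an HSP90 chaperone, rose from 300.2, 336 and 304 CPM in WT to 574, 603 and 654 CPM in KO (log2 fold change 0.96, SE 0.14, adjusted p = 0.00519, edgeR), and the other 5 were not called, beside 22.7% of all genes called. Without KO2 the list's count became 2.

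Ordered by TPM, the WT libraries had *Itgb1bp2* at the top (mean 120 ± 24.3, SD, n = 3), followed by *Flnc* (110.4 ± 16.2), *Tln1* (66.6 ± 12.5), *Vcl* (66.4 ± 10.9), *Flna* (58.2 ± 24.4) and *Pgm5* (48.4 ± 9.49). Lower levels were found for *Parva* (10.9 ± 1.87), *Tln2* (7.14 ± 3.95) and *Ilk* (4.11 ± 1.96). The WT ranges of neighbours in this order overlapped except between *Flnc* and *Tln1* and between *Pgm5* and *Parva*. In KO the order ran *Itgb1bp2* (138 ± 21.9), *Flna* (112 ± 57.0), *Flnc* (106 ± 19.3), *Vcl* (64.8 ± 17.1), *Tln1* (51.8 ± 13.4), *Parva* (14.4 ± 3.10), *Tln2* (7.89 ± 2.09), *Ilk* (4.14 ± 1.09) and *Pgm5* (2.64 ± 1.04). In KO *Pgm5* stood last, with a range that overlapped that of *Ilk*, whose place in the order rests on TPM that its counts do not share. Per library, *Pgm5* TPM was 0.020, 0.079 and 0.038 of *Vcl* TPM in KO and 0.91, 0.48 and 0.86 of it in WT.

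The genes that build the same structures were read from 9 lists. Of 114 tested list genes, 29 or 25.4% were called, 13 higher and 16 lower in KO, beside 22.7% of all genes. Their median log2 fold change was −0.10. The calls were spread over most lists and ran in both directions. The share of all genes called, against which the counts without 1 library should be read, was 30.6% without KO1, 17.7% without KO2, 13.9% without KO3, 6.01% without WT1, 13.6% without WT2 and 8.43% without WT3.

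Of 11 integrin subunits, 2 rose and 1 fell, beside 12.1% higher and 10.6% lower over all genes. *Itgb3*, the beta subunit of the vitronectin receptor, was at 39.3, 19.1 and 32.3 CPM in KO and 9.17, 10.9 and 9.54 CPM in WT (log2 fold change 1.62, SE 0.26, adjusted p = 0.00644, edgeR). *Itga3*, a subunit of a laminin receptor, rose from 47.3, 41.4 and 40.1 CPM in WT to 83.0, 166 and 115 CPM in KO (adjusted p = 0.00635, edgeR). *Itga4*, a subunit of a receptor for fibronectin and VCAM1, had 2, 0 and 1 counts in KO and 115, 154 and 133 counts in WT (adjusted p = 0.000812, edgeR). All 3 calls held under every alternative tried on counts, and the list's count became 5 without KO1. On TPM *Itga4* was not tested, as its WT values of 0.31, 0.40 and 0.26 lay below the filter. The subunits of the main muscle laminin receptor did not pass, with log2 fold changes of −0.21 for *Itgb1* (adjusted p = 0.544, edgeR) and −0.32 for *Itga7* (0.343). *Itga6*, another subunit of the list, named after its values were seen, missed the threshold on counts (−1.57, adjusted p = 0.0672, edgeR). *Itga6* was called lower on TPM (−1.81, adjusted p = 0.0206, limma), and its groups did not overlap on either scale.

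Of 11 ILK, PINCH and parvin partners, 2 rose (*Lims2* and *Rsu1*) and 2 fell (*Git1* and *Parvb*). Over all genes 12.1% were higher and 10.6% lower. *Git1*, a scaffold that binds the parvin-associated PIX exchange factors, fell by 1.197 on the log2 scale (SE 0.18, adjusted p = 0.00545, edgeR). *Rsu1*, a PINCH-binding suppressor of Ras signalling, rose by 0.46 (SE 0.13, adjusted p = 0.0364, edgeR), a call lost when any library but KO1 was left out (adjusted p from 0.0645 without KO2 to 0.160 without WT1) and with no filter on low counts (0.0768), and not made on TPM (adjusted p = 0.121, limma). The list's count of 4 became 2 without KO2, without WT1 or without WT3.

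Of 29 talin and vinculin plaque genes, 6 rose and 1 fell, beside 12.1% higher and 10.6% lower over all genes. *Lasp1*, an actin-binding LIM protein, was at 59.3, 91.7 and 76.3 CPM in KO and 30.4, 30.4 and 30.02 CPM in WT (log2 fold change 1.32, SE 0.17, adjusted p = 0.00299, edgeR). The tensins *Tns3* (1.31, SE 0.17) and *Tns2* (0.97, SE 0.14) rose as well (adjusted p = 0.00343 and 0.00427, edgeR). These 3 calls held under every alternative tried on counts. *Enah*, an actin-elongation factor, fell by 0.58 (SE 0.15, adjusted p = 0.0301, edgeR), and this call was lost when any library but KO1 was left out (adjusted p from 0.0579 without KO3 to 0.0878 without WT2) and with scaling by library totals alone (0.0710). The count of 7 became 10 without KO1, 3 without WT1 or without WT3 and 4 without KO3.

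Of 14 dystrophin complex genes, 1 rose and 4 fell, beside 12.1% higher and 10.6% lower over all genes, with a median of −0.40. *Dtna*, alpha-dystrobrevin, was at 38.1, 57.5 and 55.8 CPM in KO and 224, 225 and 202 CPM in WT (log2 fold change −2.11, SE 0.18, adjusted p = 0.000812, edgeR). *Sspn*, sarcospan, fell by 1.14 (SE 0.18, adjusted p = 0.00593, edgeR). *Nos1*, neuronal nitric oxide synthase, was at 13.2, 2.29 and 20.1 CPM in KO and 0.75, 1.19 and 0.97 CPM in WT (log2 fold change 3.61, SE 0.72, adjusted p = 0.0129, edgeR), lost without WT1 (0.0672) or WT3 (0.0588). The *Nos1* estimate moved to 2.997 without KO3 and to 4.11 without KO2. The list's 5 calls became 9 without KO1, 2 without WT1 or WT3 and 3 without KO3. *Dmd*, dystrophin itself, had 0 to 11 counts per library and was not tested, a gene singled out after its values were seen.

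Of 11 filamin C partners, 3 fell and none rose, beside 10.6% lower and 12.1% higher over all genes, with a median of −0.75. *Myot*, myotilin, was at 1.15, 1.28 and 0.32 CPM in KO and 25.8, 15.7 and 33.0 CPM in WT (log2 fold change −4.76, SE 0.51, adjusted p = 0.00193, edgeR), which held under every alternative tried on counts. *Xirp2*, a Xin repeat protein, was at 7.61, 0.14 and 0.81 CPM in KO and 45.3, 38.5 and 77.3 CPM in WT (−4.26, SE 1.09, adjusted p = 0.0290, edgeR). The *Xirp2* estimate moved to −6.85 without KO1, and its call was lost without KO3 (0.0793), WT1 (0.0842), WT2 (0.0522) or WT3 (0.0897). *Myoz1*, a calsarcin, fell by 1.52 (SE 0.40, adjusted p = 0.0308, edgeR), a call ended by leaving out KO2 (0.0732), KO3 (0.0859), WT1 (0.116) or WT3 (0.112). The 3 calls became 8 without KO1 and 1 without KO3, WT1 or WT3, and 2 without WT2.

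Beside these muscle-structure lists, the 8 myotube markers had a median log2 fold change of −0.61 with 1 call, *Actn2* (−2.94, SE 0.33, adjusted p = 0.00212, edgeR), the sarcomeric alpha-actinin of the Z-disc. Without KO1, 6 of the 8 markers were called. On TPM, limma also called *Myh8* (log2 fold change −1.88, adjusted p = 0.0173) and *Myh3* (−1.44, 0.0404) lower, beside 20.5% of all genes called. The part of myotube content in the list counts was not tested.

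Of 13 membrane cytolinkers, 1 rose and 3 fell, beside 12.1% higher and 10.6% lower over all genes. *Sptbn1*, a beta-spectrin, was at 543, 557 and 561 CPM in KO and 1023, 1031 and 1049 CPM in WT (log2 fold change −0.90, SE 0.15, adjusted p = 0.00683, edgeR). The ankyrins *Ank2* (−1.87, SE 0.42, adjusted p = 0.0186, edgeR) and *Ank3* (−1.15, SE 0.21, adjusted p = 0.00981) fell. Without WT1 both ankyrin calls were lost (0.0606 and 0.0519), and without WT2 that of *Ank2* (0.0522). *Ahnak*, a giant scaffold protein of the cell membrane, rose by 0.93 (SE 0.27, adjusted p = 0.0420, edgeR), a call ended by leaving out KO2 (0.0874), KO3 (0.0928), WT1 (0.178) or WT3 (0.152). On TPM *Ahnak* overlapped between the groups and was not called (log2 fold change 0.45, adjusted p = 0.217, limma). The 4 calls became 6 without KO1 and 1 without WT1.

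The genes whose profile over the 6 libraries was most like that of *Pgm5* were sought among 8849 genes whose mean log2 CPM was 3 or more. The measure was the root mean square difference between log2 CPM profiles centred on their own means. As *Pgm5* was picked for its fall, the genes nearest to it had to be genes that fall. *Parm1*, a mucin-like membrane protein gene, was nearest, at 0.41, with 4.73, 5.63 and 4.44 CPM in KO and 106.0, 47.5 and 73.0 CPM in WT. *N4bp3* (0.74), the interferon-induced GTPase gene *Igtp* (0.78), the secreted semaphorin gene *Sema3c* (0.82) and *Gpr141* (0.83) followed. The genes nearest to *Itgb1bp2* were *Isca2*, of mitochondrial iron-sulfur cluster assembly (0.084), *Pick1*, a PDZ-domain adaptor (0.085), and *Ppt2*, a lysosomal thioesterase (0.094). None of these 8 genes is in the 9 lists. The CPM limit left out low genes with large falls, such as *Tmem252* and the list gene *Myot*, so this absence is partly a product of the limit. *Itgb1bp2* was not called, and whether its matches are closer than those of any gene with little change was not tested.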

How the data were processed

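The deposited files hold raw read counts per gene for all libraries and, in tables laid out as StringTie writes them, TPM per gene for each library (their FPKM and coverage were not used). Per the study's methods and the submitters' processing notes, the authors trimmed reads (Trim Galore), aligned them with STAR, counted them with featureCounts and estimated abundance with StringTie (Salmon is also named). Versions of the tools that made these files and the strand setting are not given in the sources used here. The notes name mm9 and the study's methods GRCm39, but 83.2% of 45137 genes shared with a GRCm38 annotation had the same start and end, so positions are GRCm38.

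Counts were scaled by TMM, filtered by filterByExpr and tested with edgeR 4.0.16 (R 4.3.3; quasi-likelihood, genotype alone, Benjamini-Hochberg over all 14828 genes, threshold 0.05), with DESeq2 1.42.0 as an alternative. The deposited TPM were tested as log2(TPM + 1) with limma 3.58.1 on genes reaching a TPM of 1 in 3 or more libraries. Shares used an exact permutation test. Fits were tested on simulated data. No library was a duplicate.

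The members and lists were chosen with earlier results of these data known. Named were all members, their paralogs, the 3 tested genes nearest to *Pgm5* on each side, up to 3 rises and 3 falls per list whose groups did not overlap (some items are not reported here), and the genes most like *Pgm5* and *Itgb1bp2*. Alternatives were other scalings, no filter, another TPM pseudocount (0.1), a replicate block and leaving out each library, and shares from CPM.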

Additional observations from a re-analysis of the deposited data

How the results depend on the processing

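*Pgm5* kept its direction in every setting, from −4.65 to −4.03 on counts and from −4.21 to −3.54 on TPM. Of the other 8 genes, DESeq2 called 1, beside 4161 of the 17114 genes to which it gave an adjusted p. Library totals alone called 1 (23.4% of all genes) and no filter on low counts 1 (15.0% of all genes). Leaving out 1 library gave 0 to 2 calls on counts and 0 to 1 on TPM. Estimates near 0 changed sign. *Vcl* was at 0.0831 with library totals and 0.0130 with upper-quartile scaling, and *Flnc* at 0.0648 with library totals. Leaving out 1 library moved *Vcl* from −0.25 to 0.16, *Flnc* from −0.15 to 0.0441, *Ilk* from −0.0241 to 0.77 and *Tln2* from −0.0296 to 0.62 on counts, and on TPM *Vcl* from −0.18 to 0.18, *Flnc* from −0.19 to 0.0615, *Ilk* from −0.30 to 0.27 and *Tln2* from −0.0132 to 0.57. Genes called ran from 933 (without WT1) to 4712 (without KO1) beside 3361, and on TPM from 484 to 3156 beside 2394, with 1075 when low values were kept. List genes called ran from 13 to 51 beside 29, with 48 when low counts were kept. Library totals alone called 3469 genes, 2295 of them higher, beside 1796 of 3361, and moved the median over all genes from 0.03 to 0.15. The cause of these changes was not tested.

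No pairing by replicate number was seen, but 3 libraries per genotype cannot exclude a shared culture or batch. Deviations of same-numbered libraries correlated at 0.13, −0.11 and 0.01. Those of other pairs ran from −0.32 (KO3 and WT1) to 0.27 (KO3 and WT2). With the replicate block, edgeR called 2520 genes, 0 of the 8 and 28 list genes, and limma on TPM called 2103 genes. The block ended the calls of *Rsu1* (adjusted p = 0.0676), *Enah* (0.0647) and *Cdh15* (0.0569). Each genotype had 3 libraries, and the count of *Ilk* limits its precision.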
